A study of Arabidopsis thaliana with 8 samples.

Results

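The TB plates are a library of chromosome 4 tiles whose IDs run from plate TB00 to plate TB99, 8 rows of 12 wells to a plate. They were chosen by ID alone: every ID that starts with TB, gives a plate and a well and has a value in all 8 columns. Of 9600 TB wells, 9458 met this rule, out of 21295 probes with values in the series. The other 142 TB wells have no value in any column and lie in 135 separate places. The working name of these plates, "euchromatin-like", could not be checked, because no gene, position or sequence is paired with a probe in the sources used here. They are therefore called the TB plates, sizes are given in probes or wells, and no sequence is shown.

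Chromatin of whole seedlings was immunoprecipitated with an antibody to histone H3 dimethylated at lysine 4 (H3K4me2) and hybridised against input DNA on 2-colour arrays (ChIP-chip). The plants were Arabidopsis thaliana named ColxC24 in the source names, taken as the hybrid of accessions Col-0 and C24, although the strain field gives C24. They were 10 days old, grown in liquid medium and not treated. All samples share this genotype, age and antibody, so the comparison is of IP with input within 1 group of 4 replicates, I to IV. Each replicate was hybridised as a dye swap, and its 2 deposited columns differed at 0 probes, so they were counted as 1. The labels do not say whether the replicates came from separate plants. Every p-value rests on the spread of these 4 samples alone, and that spread may be technical.

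H3K4me2 is laid down on nucleosomes by SET-domain methyltransferases. In plants it is found over genes, mostly in their 5′ part and body, and is scarce over transposons and in heterochromatin. In gene-rich chromatin a tiled profile is therefore known to alternate between marked genes and unmarked sequence. This is background, and which TB tiles hold genes was not determined.

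All values below are the deposited log ratio, taken as log2, minus the median over all probes of the same replicate. The sign is as deposited, and the direction of the ratio is not stated in the sources used here. With the sign turned, "high" and "low" change places.

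The TB plates carried many high probes and few low ones. In limma's treat test against a distance of 0.5 from the median (Benjamini-Hochberg adjustment over all 21295 probes, threshold 0.05), 3670 TB probes, or 38.8%, were above. The background share above, over the whole series, was 28.1%. Below were 1320 TB probes, or 14.0%, against a background of 30.6%. The remaining 4468 TB probes passed on neither side. The test takes the replicates as independent, while I was most like III and II most like IV, and with these pairs as random blocks 3235 were above and 1043 below. The probes called above had means from 0.67 to 4.47 with a median of 1.24, and those called below had means from -3.41 to -0.67 with a median of -1.10. The split depends on where 0 is placed: relative to the TB median in place of the series median, 1917 were above and 2388 below, and without centring 1399 and 2157. All 3670 and all 1320 called relative to the series median had the same sign in each of the 4 replicates. The calls rest on these same values, so this is nearly given by the choice. Of the 4468 uncalled probes, 3017 had 1 sign too. Over the replicates, TB probes had a median SD of 0.19 and a largest SD of 1.30.

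The highest TB probe was TB65A08, with 4.66, 4.19, 4.46 and 4.55 in replicates I to IV (limma's treat, adjusted p = 9.0e-07). It stood far above its direct neighbours, which had means of 1.48 and 0.16. TB26C04 had 3.77, 3.88, 3.49 and 4.15 (adjusted p = 1.0e-06), next to neighbours at -0.07 and 0.94. Both of these peaks were thus 1 probe wide at their top. The lowest probe, TB56E09, had -3.48, -3.42, -3.34 and -3.40 (adjusted p = 9.0e-07), beside a neighbour at 0.35 and a well without a value. TB32C07 was nearly as low on average, at -3.96, -2.66, -3.99 and -2.86 (adjusted p = 3.4e-05), with I and III lower than II and IV. Its neighbours were low too, at -2.77 and -2.13.

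**Figure D1:**
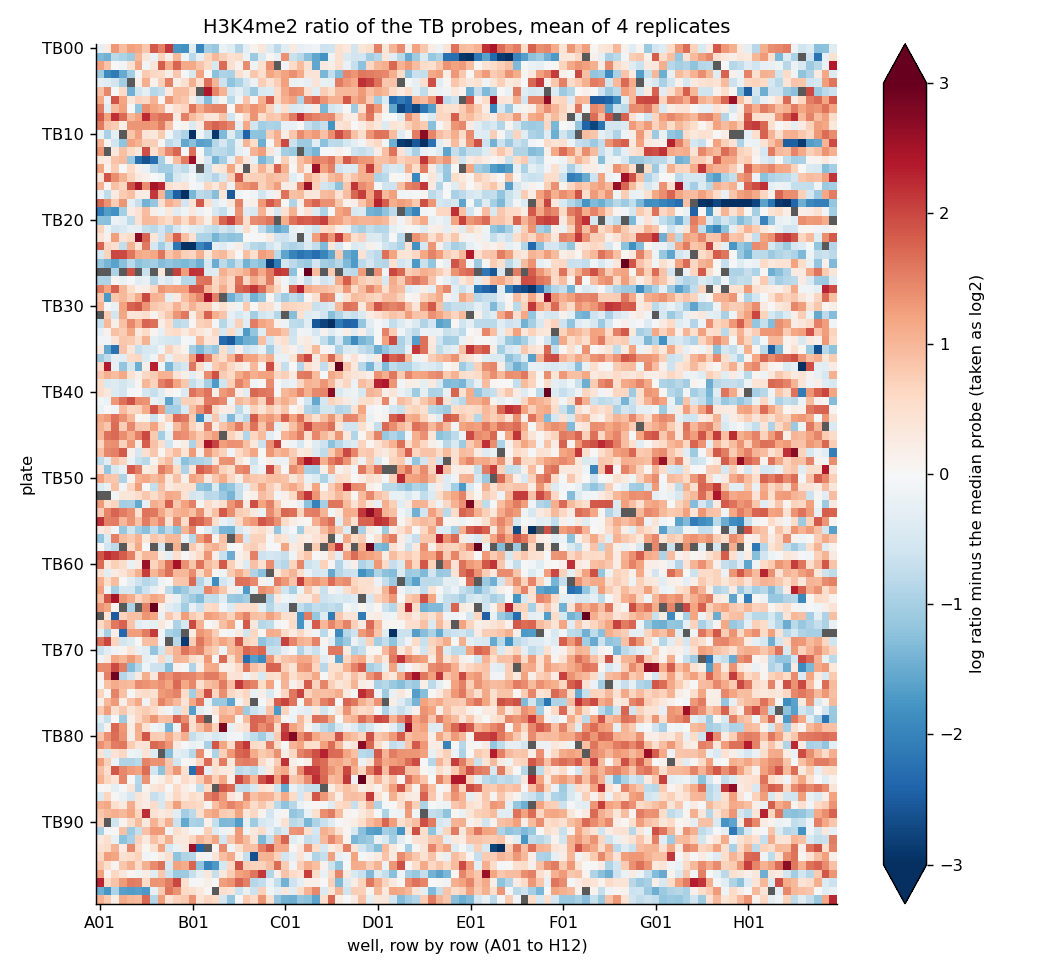
Heat map of the 9458 TB probes. Each line is a plate (TB00 at the top), each square a well in row order, red above and blue below the median probe (mean of 4 replicates, log ratio taken as log2, colours saturate at the ends of the scale), and dark grey squares are the 142 wells without a value. Short red stretches fill most plates, and the longest blue stretches lie in plates TB01, TB18 and TB25.

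Wells that follow each other in ID order had similar ratios, which is what allows runs to be read along it. Across TB probes 1 well apart the Pearson correlation of the mean ratio was 0.594 (9322 pairs, 0.568 to 0.589 in single replicates). It fell to 0.363 at 2 wells, 0.231 at 3, 0.128 at 10 and 0.017 at 96. The order carried over the ends of rows: the correlation was 0.596 within a row, 0.586 from the last well of a row to the first of the next (682 pairs) and 0.511 from the last well of a plate to the first of the next (93 pairs). Wells directly above each other in a plate, 12 apart in ID order, were alike only at 0.118. These are descriptions across probes, which share arrays and are not independent replicates. With the wells ordered column by column, the mean high run dropped from 2.64 to 1.72 probes.

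**Figure D2:**
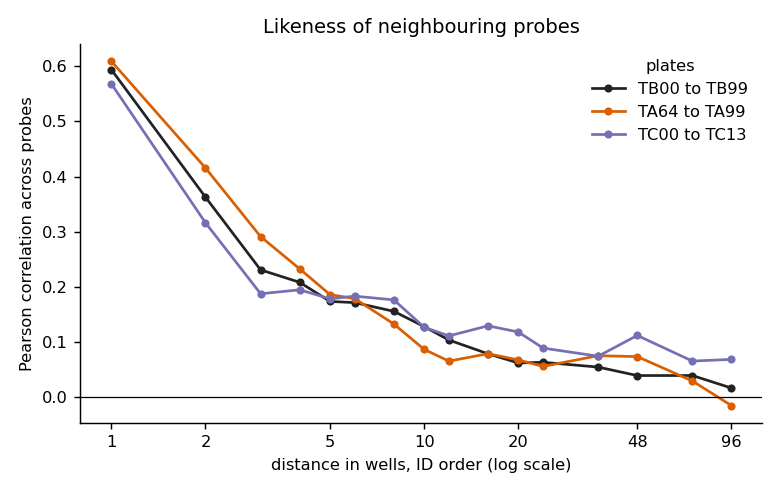
Pearson correlation across probes (mean of 4 replicates) against the distance in wells along ID order, on a log scale, for the TB plates, plates TA64 to TA99 and plates TC00 to TC13. The TB line starts at 0.594, has dropped to 0.231 by a distance of 3 wells, and is near 0 at 96 wells.

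High probes formed many short runs. A high run is a stretch of consecutive wells that were all called above, and a well without a value ends it. There were 1390 such runs with a mean length of 2.64 probes. Fewer or shorter runs were found with 0 placed higher: 902 with a mean of 1.55 without centring, 901 with a mean of 1.55 relative to the mode, and 1096 with a mean of 1.75 relative to the TB median. Of the 1390 runs relative to the series median, 539 (38.8%) were 1 probe long, 312 were 2 probes long and 219 were 3 probes long. The 201 runs of 5 or more made up only 14.5% of the runs but held 37.4% of the high probes. Counted in single replicates, with a ratio over 0.5 in place of the test, there were 1390.5 ± 24.1 high runs (SD, n = 4) with a mean length of 3.31 ± 0.10 probes. That cut took in 48.1% to 49.3% of the TB probes in a replicate, against 35.5% to 36.6% of all probes.

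Longer runs were only slightly higher than short ones. The median height of runs of 1 probe was 1.12 ± 0.05 (mean of 4 replicate medians, SD). It was 1.25 ± 0.06 for runs of 2, 1.36 ± 0.02 for runs of 5 to 9 and 1.37 ± 0.03 for the 24 runs of 10 or more. Heights are a description, since the runs were chosen by these values. Their highest probes rose more with length, from a median of 1.10 in runs of 1 to 2.04 in runs of 10 or more, where more probes compete for the maximum.

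The longest high run, TB07H01 to TB08A10, spanned 22 probes over a plate end. Its mean was 1.41, 1.5, 1.38 and 1.51 in replicates I to IV, and its lowest probe was at 0.94. At a ratio over 0.5 in single replicates it was also the longest run in each, with 27 probes in I and III and 22 in II and IV. TB36E10 to TB36G01 followed with 16 probes, at 1.24, 1.42, 1.22 and 1.47. It had a sharp start: the well before it, TB36E09, was at -1.63 ± 0.28 (SD, n = 4). Next came 3 runs of 15 probes. TB95G11 to TB96A01 was at 1.46 ± 0.09 and TB78C09 to TB78D11 at 1.37 ± 0.07. TB80E09 to TB80F11 was higher in I and III (1.45 and 1.39) than in II and IV (1.06 and 1.15).

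The spacing of the runs was irregular. From the start of one high run to the start of the next there was a median of 5 wells, with quartiles of 3 and 8 and a largest distance of 62. Between neighbouring high runs 1274 intervals had a value in every well, and their median length was 2 wells with a 90th percentile of 9. The median was 4 wells relative to the TB median and 5 without centring or relative to the mode. With the sign turned, 598 intervals between low runs take their place, with a median of 5 wells. Of the 1274 intervals 463 (36.3%) were 1 well long. The other 115 neighbouring pairs of runs had a well without a value between them and were left out.

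Most short intervals held no probe called below. This was so for 457 of the 463 intervals of 1 well, and over all 463 the median of that 1 probe was 0.45. The test asks for more than a mean past 0.5. Means of probes called above began at 0.67 and those of uncalled TB probes reached 1.30. An interval of 1 well can therefore be a probe over 0.5 that missed the call. The share of intervals with at least 1 probe called below rose with length, from 1.30% of those with 1 well to 11.98% of those with 2, 32.7% with 3 and 51.4% with 5, and 93.0% of those over 10 wells held one. The median of the lowest probe in the interval went down over the same lengths from 0.45 to 0.03, -0.34, -0.81 and -1.43. A longer interval has more wells in which a low probe can occur. In all, 915 of 1274 intervals (71.8%) held no low probe.

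**Figure D3:**
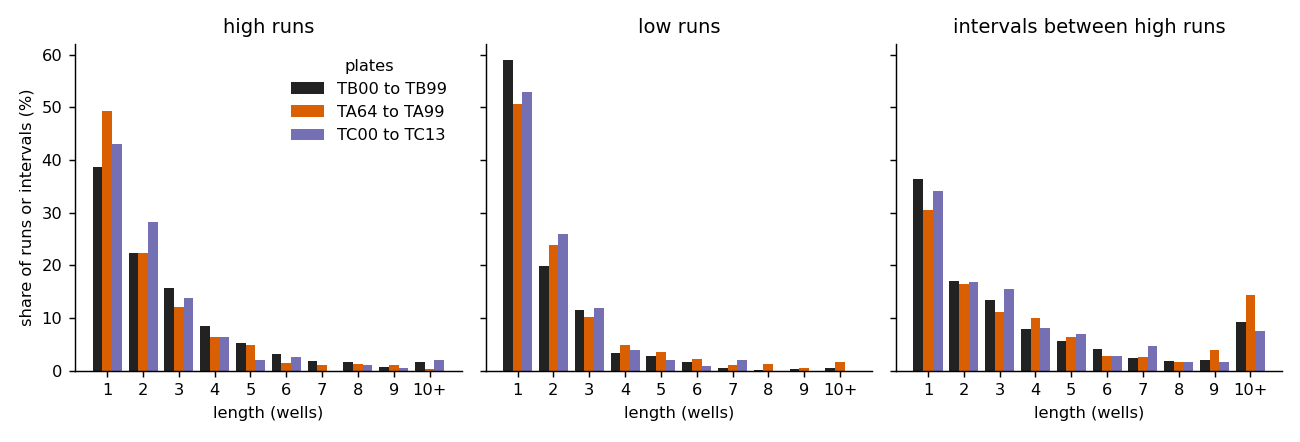
Lengths of high runs (left), low runs (middle) and intervals between high runs (right) in wells, as bars giving the share of all runs or intervals of that kind, for the TB plates, plates TA64 to TA99 and plates TC00 to TC13. In the TB plates 38.8% of high runs and 59.1% of low runs were 1 probe long, and 9.18% of the intervals were 10 wells or longer.

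Short low gaps, intervals of at most 5 wells between 2 high runs with at least 1 probe called below, numbered 161. They were found on 77 of the 100 plates, with at most 5 on a plate. In 112 of them (69.6%) exactly 1 probe was low, in 36 it was 2 and in 13 it was 3 or more. The lowest probe of a gap had a median of -1.12 ± 0.01 and the flanking runs one of 1.28 ± 0.03 (means of 4 replicate medians, SD). The depth, flank mean minus lowest probe, had a median of 2.41 ± 0.03 and ran from 1.61 to 4.15. These values chose the gaps and are a description. The gaps held 230 of the 1320 low probes, or 17.4%, so that most low probes lay outside them. The count follows the call rule closely: with a ratio under -0.5 and over 0.5 in single replicates there were 351, 333, 357 and 336 gaps. In the test there were 82 without centring, and 107 when the replicate pairs I with III and II with IV entered as random blocks. At the cut of -0.5 in single replicates, 19.8% to 21.1% of TB probes were low, against 36.2% to 37.5% of all probes.

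The deepest gap was TB11H06 to TB11H10, in which all 5 probes were low. Its lowest probe, TB11H08, had -3.25, -2.33, -3.41 and -2.51 in replicates I to IV, between runs with a mean of 1.28 ± 0.14. I and III were deeper there than II and IV, and this was plainer at TB11H09, with -2.74 and -2.49 against -0.74 and -0.76. TB93E03 to TB93E05 was almost as deep and more alike in the replicates: TB93E05 had -3.18, -2.94, -2.98 and -2.85, directly before a high run of 6 probes. The gap TB37A03 to TB37A07, with a depth of 3.82 ± 0.27, had the highest flanks and the least low floor of the 6 deepest gaps. The 2 high probes beside it averaged 2.36 ± 0.20, and its lowest probe TB37A06 was at -1.47 ± 0.13.

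In the other 3 of the 6 deepest gaps exactly 1 probe was low. TB40H08 had -1.85, -2.38, -1.72 and -2.44, between the high probes TB40H07 and TB40H09 with means of 1.63 and 1.32. TB94B09 had -2.22, -3.06, -2.30 and -3.01, with II and IV deeper, at the end of a slope that began at 0.15 in TB94B07. TB84B01 had -2.25, -2.56, -2.19 and -2.04, and the well before it, TB84A12, was at 0.49. The depths of these gaps were 3.68 ± 0.63, 3.68 ± 0.24 and 3.64 ± 0.16.

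Direct steps from high to low were rare. Of 7263 neighbours of high TB probes, 62.8% were high, 34.8% uncalled and 2.42% low. Of all TB probes, 38.8% were high, 47.2% uncalled and 14.0% low. Of 2585 neighbours of low probes, 48.05% were low and 6.81% high. Such steps were rare in the adjoining plates too. Beside high probes 3.68% were low in TA64 to TA99 and 3.36% in TC00 to TC13, and beside low probes 3.98% and 7.90% were high. Of all probes there, 26.0% were high and 24.3% low in TA64 to TA99, and 34.2% and 14.7% in TC00 to TC13. The steps are to be read against these shares, which differ from those of the TB plates. Only 6 low probes had a high probe directly on each side: TB06C03, TB22G02, TB29A02, TB40H08, TB59G02 and TB99A08, of which all but TB40H08 are named after their values were seen. Their means ran from -2.09 in TB40H08 to -0.86 in TB99A08. TB29A02 was the most even of them, with -1.76, -1.67, -1.73 and -1.76. The reverse, a high probe between low neighbours, was found once in the TB plates, at TB66C04. It had 1.32, 1.66, 1.38 and 1.80 (limma's treat, adjusted p = 7.0e-05), between TB66C03 at -1.80 ± 0.26 and TB66C05 at -1.13 ± 0.44. With the sign turned, short high islands between low runs take the place of the gaps, and there were 78 of them.

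**Figure D4:**
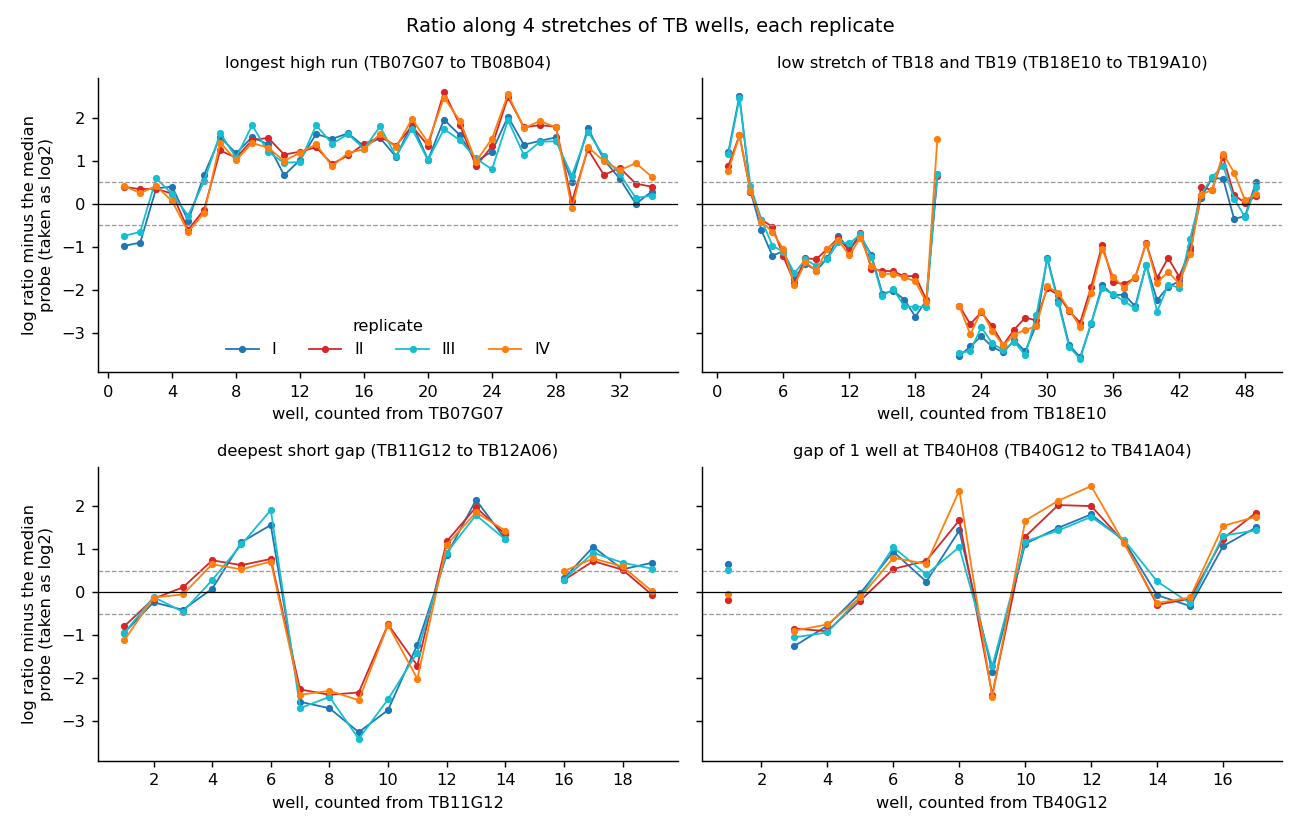
Log ratio minus the median probe (taken as log2) in each of the 4 replicates along 4 stretches of TB wells, with dashed lines at 0.5 and -0.5; a break in a line is a well without a value. The longest high run averages 1.45, the stretch from TB18F02 to TB19A04 lies below -0.5 but for TB18G05, and the gaps at TB11H08 and TB40H08 are seen in all 4 replicates.

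Relative to the series median, low runs were fewer and on average shorter than high ones, but this order depends on where 0 is placed. Low runs were the longer ones on average relative to the TB median (2.49 against 1.75 probes), without centring (2.35 against 1.55) and relative to the mode (2.62 against 1.55), and they outnumbered high runs in the latter 2 settings (917 to 902 and 1023 to 901). Relative to the series median there were 699 low runs with a mean length of 1.89 probes, and 413 of them (59.1%) were 1 probe long. Only 4 had 10 probes or more. Their median depth was greater with length, from -1.03 ± 0.01 in runs of 1 to -1.25 ± 0.05 in runs of 5 to 9, and the 4 longest had a median of -1.72 ± 0.09. In single replicates, at a ratio under -0.5, there were 876 ± 9.45 low runs with a mean length of 2.18 ± 0.07 probes (SD, n = 4).

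The longest run of probes called below, and the deepest of the 5 longest, lay on TB18 and TB19. TB18G07 to TB19A04 was a run of 22 probes at -2.56, -2.11, -2.56 and -2.19 in replicates I to IV. Just before it, TB18F02 to TB18G04 was a low run of 15 probes at -1.45 ± 0.10. Between them lay a well without a value and TB18G05, which had 0.70, 0.65, 0.70 and 1.496 and was called above (limma's treat, adjusted p = 0.039). Of the 38 probes from TB18F02 to TB19A04, 37 were low. TB01D08 to TB01E12 was a low run of 17 probes at -2.09, -1.87, -1.999 and -1.97, with neighbours at -0.43 and 0.35. TB55G04 to TB55G12 had 9 probes at -1.64 ± 0.17.

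A shallower low stretch with more low probes in all joined TB24 and TB25. TB24H12 to TB25B02 had 15 low probes at -1.06, -1.27, -1.19 and -1.32, and it was part of the longest interval between high runs, TB24G11 to TB25D10. None of its 60 probes was high and 47 were low, and its median was -1.001 ± 0.12 (SD, n = 4). At a ratio under -0.5 it gave the longest low run in II (41 probes) and in IV (27 probes), while in I and III the run of 22 probes on TB18 and TB19 was the longest. The next longest intervals, each of 36 wells, were TB32B12 to TB32E11 at a median of -0.68 ± 0.06 with 17 low probes and TB23A08 to TB23D07 at -0.67 ± 0.04 with 15.

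Runs and gaps were also defined in some replicates and read in the others. Of 345 gaps defined on the mean of I and III, 340 (98.6%) had their lowest probe under each flanking run in both II and IV, and 240 (69.6%) had it under -0.5 in both. Its median there was -0.82 in II and -0.82 in IV, and the median depth was 1.83 and 1.90. In the reverse direction 330 of 331 gaps (99.7%) lay under each flank in both I and III, and 230 (69.5%) under -0.5. Of 1352 high runs defined in I and III, 1150 (85.1%) had a mean over 0.5 in both II and IV, and for 1400 runs defined in II and IV this held in I and III for 1216 (86.9%). Over the whole series the mean of I and III was over 0.5 at 36.3% and under -0.5 at 37.5% of the probes, and that of II and IV at 35.6% and 36.2%. These are shares of single probes by the mean of a pair. They are no baseline for the shares above, which are of runs and of lowest probes in both replicates. No matching share was computed for those, nor for the order of gap and flanks. The gaps had this order in the defining pair by choice. Across TB probes the replicates of different pairs correlated at 0.90 to 0.91, so high shares say little by themselves.

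The ratio stepped at the run edges on each side. In runs of at least 4 probes defined in I and III, the first probe had a median of 0.95 in II and 0.98 in IV, and the last probe one of 0.996 and 1.05. Directly outside, the medians were 0.05 and 0.01 before the run and 0.11 and 0.08 after it. By the choice of the edge, that well had to lie at or under 0.5 in the mean of I and III, and the probes inside over 0.5. A step is thus partly built into the choice, and its size was not compared with what this choice alone gives. At 4 wells from the edge the medians were back at 0.55 and 0.61 before the run and at 0.58 in both after it, above the TB median. The edges of runs defined in II and IV had the same shape in I and III, with 1.04 and 1.09 in the first probe and 0.09 and 0.08 in the well before it.

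**Figure D5:**
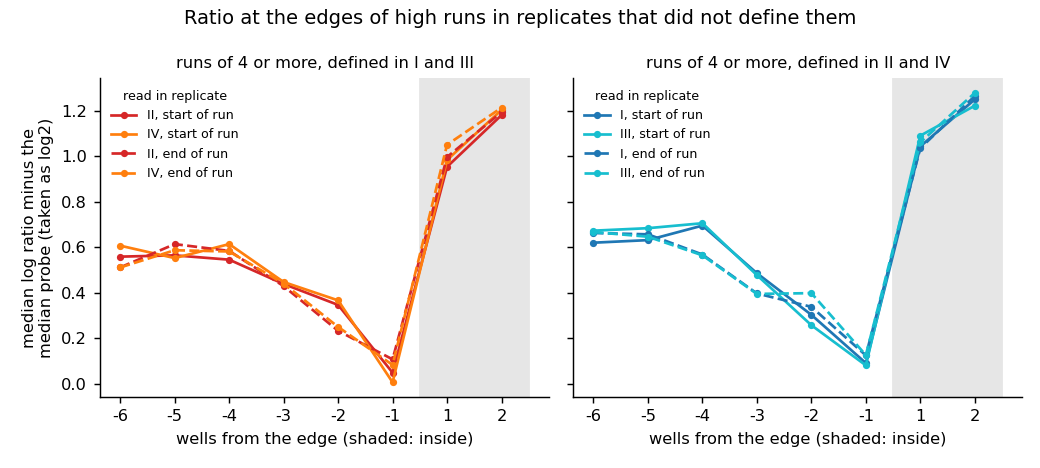
Median log ratio minus the median probe (taken as log2) at wells outside (-6 to -1) and inside (1 and 2, shaded) the edges of high runs of at least 4 probes, read in the replicates that did not define the runs; solid lines are starts and dashed lines ends. All lines step up from 0.13 or less in the well outside to 0.95 or more inside, and are at 0.51 or more at 4 to 6 wells from the edge.

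The density of peaks and gaps changed along the plates. A plate had between 5 and 24 high runs, with a median of 14, and between 11 and 67 high probes. TB73 had most high runs, 24, with 52 of its 96 probes high and 1 low. TB71 and TB93 followed with 22 each, and TB93 also held 5 short low gaps. TB80 had the highest plate median, 1.17, 0.95, 1.07 and 1.05 in replicates I to IV, but its 67 high probes fell into only 12 runs. TB54 (1.05 ± 0.02) and TB45 (1.03 ± 0.15) followed, each with 16 high runs. At the other end TB25 was at -0.57 ± 0.08, TB23 at -0.42 ± 0.07 and TB18 at -0.42 ± 0.07. The fewest high runs were on TB23, with 5, and on TB21, TB25 and TB64, with 6 each. TB18 differed from TB23 and TB25 in keeping 27 high probes beside 40 low ones, against 11 and 12 high probes there. No plate was free of low probes, and on 7 plates the median lay under 0 in every replicate.

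In blocks of 10 plates, TB40 to TB59 and TB70 to TB89 had the higher levels. Block medians there ran from 0.58 ± 0.02 (TB50 to TB59) to 0.70 ± 0.04 (TB80 to TB89), with 43.1% to 48.1% of the probes high and 6.95% to 9.69% low. In the other 6 blocks the medians ran from 0.22 ± 0.02 (TB10 to TB19) to 0.42 ± 0.02 (TB00 to TB09), with 31.1% to 37.3% high and 14.9% to 21.5% low. Low runs were longest in TB20 to TB29, at a mean of 2.46 probes, and shortest in TB80 to TB89, at 1.38. Short low gaps were most numerous in TB40 to TB49 and TB90 to TB99, with 23 each, and fewest in TB20 to TB29, with 9. This division was chosen after the values were seen.

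The position of a well on its plate moved with the ratio. Odd columns had a TB median of 0.52 ± 0.01 and even columns 0.41 ± 0.03, a difference of 0.07, 0.11, 0.09 and 0.17 in replicates I to IV. High probes made up 41.8% of the odd and 35.8% of the even columns. The gaps are deep by the way they were chosen, so their depth is no measure for the size of this difference. With the 4 classes of wells (odd or even row, odd or even column) set to the same median, and calls by the mean ratio alone, there were 1337 high runs and 321 short low gaps, against 1349 and 317 by the same rule without that step.

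Plates TA64 to TA99, with 3332 probes, and TC00 to TC13, with 1268, adjoin the TB plates in ID order and were compared with them over replicates. Flipping the signs of 4 replicate differences in every way (exact test, two-sided) gives p = 0.13, rounded, at the lowest, so none of these differences can pass 0.05. The test takes the 4 replicates as independent, while I was most like III and II most like IV. A direction shared by 4 of 4 replicates is therefore weaker than 4 independent results. The median of the TB plates exceeded that of TA64 to TA99 by 0.48, 0.45, 0.53 and 0.43 in replicates I to IV (exact p = 0.13, the lowest possible). At a ratio over 0.5 in single replicates, high runs had 3.31 ± 0.10 probes in the TB plates and 2.65 ± 0.06 in TA64 to TA99, longer in 4 of 4 replicates. Low runs were shorter, with 2.18 ± 0.07 against 2.49 ± 0.08 probes, also in 4 of 4. At these cuts 48.7% of the TB probes and 34.1% of those of TA64 to TA99 were high, and 20.2% and 32.8% were low. Run lengths at a fixed cut go with these shares, and lengths at equal shares were not compared. Per 100 probes, short low gaps were more frequent in the TB plates, with 3.64 ± 0.12 against 3.09 ± 0.18, again in 4 of 4 replicates. Intervals that hold a well without a value were left out, which lowers this rate. By the test, 1274 intervals were kept between 1390 TB high runs, and 311 between 394 in TA64 to TA99. Gaps by the test numbered 1.70 per 100 probes in the TB plates and 1.47 in TA64 to TA99. Counted per kept interval, also by the test, the order turned, with 161 gaps in the 1274 TB intervals against 49 in the 311.

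Plates TC00 to TC13 were closer to the TB plates in level. The TB median exceeded theirs in 3 of 4 replicates, by a mean of 0.05 ± 0.07 (exact sign-flip p = 0.375). The mean was 0.08 without replicate I and 0.03 without replicate II. Short low gaps were denser in TC00 to TC13, at 4.28 ± 0.22 per 100 probes, in 4 of 4 replicates. Their high runs had 3.37 and 3.32 probes in I and III but 2.61 in both II and IV, while the TB runs had 3.39 and 3.41 against 3.24 and 3.21. In TC00 to TC13 the share of high probes was 50.8% and 49.0% in I and III, and 42.2% and 41.8% in II and IV. The SD of the mean length over replicates was 0.43 in TC00 to TC13 and 0.10 in the TB plates, a difference that was not tested.

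The replicates were alike in pairs within the TB plates. Over TB probes the Pearson correlation was 0.98 for I with III and for II with IV, and 0.90 to 0.91 for the other pairs, as a description across probes. At a ratio over 0.5, 3718 TB probes were high in all 4 replicates and 5450 in at least 1. Only 42 were over 0.5 in one replicate and under -0.5 in another. The 3 least alike probes lay between neighbours called above, and each was under -0.5 in 1 replicate. TB62E08 had -1.21 in I against 1.495, 0.95 and 1.55 in the others, and its neighbours were at 1.40 and 1.46. TB68G12 had -1.11 in I and 0.23 in III against 1.496 and 1.68 in II and IV, between neighbours at 1.34 and 1.17. TB98D04 had 1.76, 1.96 and 1.53 in I to III and -0.69 in IV. None of these 3 was called, so each ended a high run.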

How the data were processed

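The file analysed is the series' table of processed values, 8 columns for 4 dye swaps. The authors deposited log ratios, read here as log2 values. How background and dyes were treated, which base the logarithm has and which channel is the numerator is not given in the sources used here. Scanner signals were not used. Depth does not apply to arrays, and the 4 replicates limit the precision. One column per replicate was centred on its median over 21295 probes, with no loess or quantile step. The test was limma 3.58.1 in R 4.3.3 (lmFit, then treat with a size over 0.5, two-sided, Benjamini-Hochberg over all probes). It was tried on simulated data with independent noise in the 4 replicates. That trial does not cover the likeness of I with III and of II with IV. Runs, intervals and gaps were counted in Python 3.11.15 with numpy 2.4.6 and pandas 2.3.3.

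The members, lists and tests were chosen with earlier results of these data known. Named were the 2 highest and 2 lowest probes called with 1 sign in all replicates, the 5 longest high and low runs, the 6 deepest gaps, isolated high probes (up to 4, of which 1 was found), the 3 plates at each end by median and by high runs (4 at the lower end, with ties), the 3 longest intervals and the 3 probes with the largest SD. The replicates share no group to be paired with. Alternatives covered the size and threshold of the test, the centring, quantile normalization, left-out replicates, random blocks, the call, the order of wells, wells without a value and the gap length.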

Additional observations from a re-analysis of the deposited data

Results flagged for a closer look

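Of 43 sets of 4 replicate values given in the report, 1 had a replicate far from the other 3. Chance gives about 1 in 20 in sets not chosen for their spread, and this rate does not apply here, since the probe was named for one of the 3 largest SDs of 9458. At probe TB98D04, replicate IV was at -0.69, while I, II and III were at 1.76, 1.96 and 1.53. Its neighbours did not share this: in IV, TB98D03 was at 1.08 and TB98D05 at 0.82. The cause was not tested.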

How the results depend on the processing

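Quantile normalization and skipping wells without a value moved none of the counts of probes, runs and gaps, mean lengths or the median interval beyond 1.5 times or the SD over replicates. A size over 1 left 1673 probes above and 443 below, 286 low runs, mean lengths of 1.66 (high) and 1.55 (low), 19 gaps and a median interval of 4 wells. With no size there were 2419 probes below, 518 gaps and mean lengths of 4.17 and 2.48. An adjusted p of 0.01 gave mean lengths of 2.34 and 1.71 and an interval of 3. Without centring, 1399 were above and 2157 below, in 902 high runs, with lengths of 1.55 and 2.35, 82 gaps, an interval of 5 and a TB median of -0.038. Centred on the mode, these were 1397, 2678, 901, 1.55, 2.62, 96, 5 and -0.13. Centred on the TB median, 1917 were above and 2388 below, with lengths of 1.75 and 2.49 and an interval of 4. The random blocks of I with III and II with IV gave lengths of 2.41 and 1.70, 107 gaps and an interval of 3. Calls by the mean alone gave 3.45, 2.26 and 317 gaps, and with the 4 classes of wells set alike, added after the data were seen, 3.48, 2.26 and 321. Column order gave 2135 high and 1060 low runs, lengths of 1.72 and 1.25 and 633 gaps. Joining over 1 uncalled well gave a length of 4.42 and an interval of 4. Gaps of at most 3 and 10 wells numbered 88 and 266. Without 1 replicate, high runs had 2.50 to 2.57 probes and low runs 1.75 to 1.88. The differences of the TB median from the other plates moved by less than their SD, and the 4 extreme probes kept sign and call in 36 of 36 alternatives; chosen as extremes, they say little of other probes. Beyond the construction of each setting, the cause was not tested. Signal over background could not be read from log ratios.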
